A study of Mus musculus with 8 samples.

Results

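The genes described here encode 10 antimicrobial and inflammatory proteins best known from neutrophils: Lcn2, Camp, Ltf, S100a8, S100a9, Saa3, Ngp, Slpi, Chi3l3 and Ctsg. They were chosen by name, from the gene names that the scanner files give to their probes, with earlier results of these data known. The 10 genes are among 27398 distinct gene names on the array and have 12 of its 41174 probes, because Ltf and Slpi have 2 probes each. RNA came from dendritic cells (DC) that were grown from mouse bone marrow and sorted, and each RNA was hybridised to a one-colour Agilent array with probes of 60 bases.

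The mice were male C57BL/6Jax animals, either knockout (KO) for the microRNA miR-155 or wild type (WT). All cells were grown with the growth factor GM-CSF at 40 ng/mL for 7 days. The KO LPS and WT LPS groups then received lipopolysaccharide (LPS), a component of the wall of Gram-negative bacteria, at 100 ng/mL for 16 h, and were sorted as CD86-positive cells. The KO unstimulated and WT unstimulated groups received none and were sorted as CD86-negative cells. According to the design text, the sorted LPS cells had been adherent ones. An LPS comparison therefore also compares CD86-positive with CD86-negative cells, and the stimulus, the sort and the adherence cannot be told apart. Each of the 4 groups had 2 arrays, and the labels do not say whether these came from separate animals or cultures, so the p-values measure only the spread between these samples. The KO strain lacks the microRNA mmu-miR-155-5p, shown here with its seed, bases 2 to 8, in capitals as RefSeq gives it (GRCm38.p6, chr16:84714143-84714165, plus strand). The microRNA itself was not analysed here, so the knockout was not checked on these arrays.

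mmu-miR-155-5p: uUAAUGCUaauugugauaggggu

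Neutrophils store antimicrobial proteins in granules that are filled in order while the cell matures in the bone marrow. Primary granules hold serine proteases such as cathepsin G, and secondary granules hold lactoferrin, lipocalin 2, the cathelicidin precursor and neutrophilic granule protein, while S100a8 and S100a9 lie free in the cytosol. Several of these genes are also switched on outside neutrophils by Toll-like receptor signals, among them Lcn2, Saa3 and Slpi in macrophages. C/EBP transcription factors act on many of them in both settings.

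Levels are given as the scaled log2 signal, which is the log2 of the scanner's processed signal minus the array's own 75th percentile, so that 0 marks that percentile on every array. A spot is called well above background by the scanner's own flag, and between 50.8% and 58.3% of spots on an array were. The 8 arrays lay on 2 slides of 4: slide 2 held both KO LPS arrays with replicate 1 of WT LPS and of KO unstimulated, and slide 1 held the rest. Of the 10 genes, 9 passed the filter on dim probes, which asked that some group have both its arrays well above background, as 15401 genes did. Ngp did not pass. Because Lcn2 and Camp passed only through the LPS groups and Ltf and Ctsg only through the unstimulated groups, the filter itself kept genes that differed. The p-values of these genes are therefore no separate support for a difference.

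The probes that carry the main results are shown 5′ to 3′ as the array design gives them, because a level on an array is a level of these bases and of no other part of the transcript. Both Ltf probes are included since they did not give the same result. Positions are those of build mm9, as the files give them. The Lcn2 probe lay at chr2:32241037-32241281 on the minus strand, across an intron, and the Camp probe at chr9:109749992-109750051 on the minus strand. The Ltf probes lay on the plus strand of chromosome 9, the one used at chr9:110942873-110942932 and the other, across an intron, at chr9:110938264-110941314. The Saa3 probe lay at chr7:53968031-53968090 on the minus strand, and its listed accessions include Saa1 as well as Saa3, so its signal may hold both. The S100a8 probe lay at chr3:90473778-90473837 on the plus strand.

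Lcn2 probe: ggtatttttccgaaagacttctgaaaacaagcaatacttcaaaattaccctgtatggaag
Camp probe: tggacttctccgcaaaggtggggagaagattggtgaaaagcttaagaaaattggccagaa
Ltf probe used: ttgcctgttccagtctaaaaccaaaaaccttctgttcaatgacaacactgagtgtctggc
Ltf other probe: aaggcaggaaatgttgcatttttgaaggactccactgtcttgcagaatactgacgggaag
Saa3 probe: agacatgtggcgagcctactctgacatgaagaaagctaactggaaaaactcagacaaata
S100a8 probe: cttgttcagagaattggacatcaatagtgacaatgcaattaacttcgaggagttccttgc

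After LPS, 4 of the 9 tested genes rose in both genotypes: Lcn2, Saa3, Camp and Slpi. Ltf was called lower in KO, and Chi3l3 and Ctsg in WT, while S100a8 and S100a9 did not pass the test in either genotype. These calls do not set the genotypes apart. Chi3l3 and Ctsg were also lower on both KO LPS arrays than on both KO unstimulated arrays. The other Ltf probe was lower after LPS in both genotypes. In all, 5 of 9 genes were called in KO, 4 of them higher, where 20.8% of the 15400 genes tested were called, 10.4% higher and 10.5% lower. In WT 6 of 9 were called, again 4 of them higher, where 20.2% of 15401 genes were called, 9.48% higher and 10.7% lower. Because the genes were chosen with earlier results known, their counts cannot be tested against these shares. The median log2 difference of the 9 genes was 0.47 in KO and -0.12 in WT, and that of all genes was 0.049 in KO and 0.00135 in WT. Calls rest on limma with Benjamini-Hochberg adjustment over all genes tested, at a threshold of 0.05. In sorted cells measured in bulk, fewer cells of a type and less RNA per cell cannot be told apart.

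**Figure D1:**
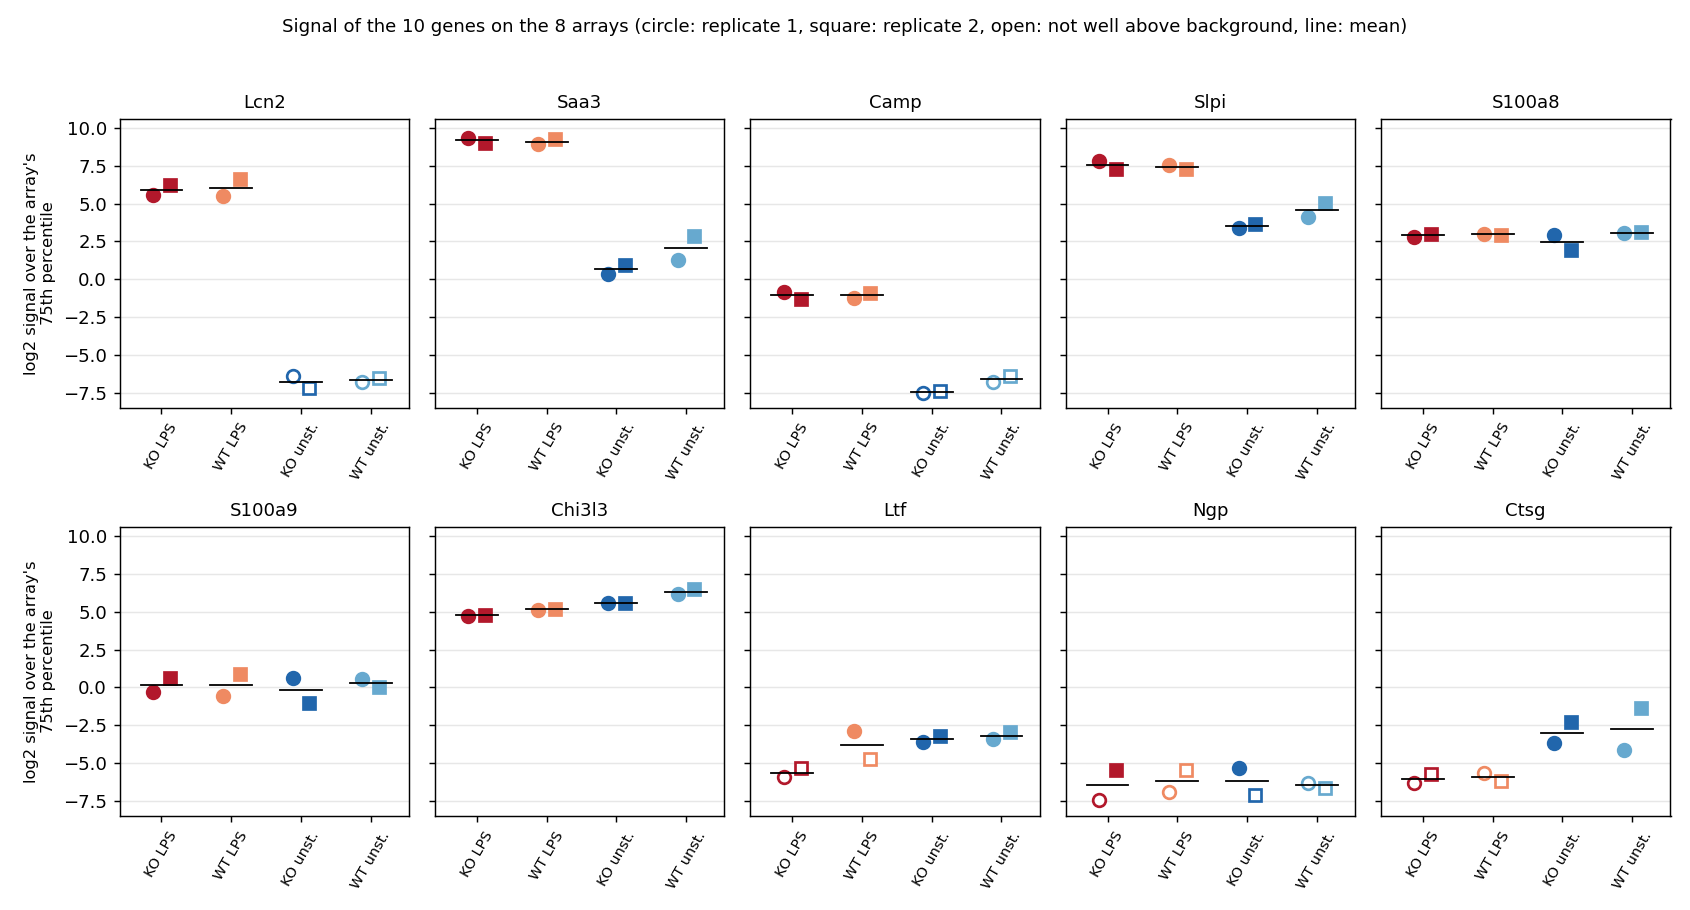
Scaled log2 signal (vertical axis) of each of the 10 genes on the 8 arrays, in the order KO LPS, WT LPS, KO unstimulated and WT unstimulated; circles are replicate 1, squares replicate 2, open symbols spots not well above background, and lines group means. Lcn2, Saa3, Camp and Slpi stand higher on all 4 LPS arrays than on all 4 unstimulated arrays, while S100a8 and S100a9 were not called in either genotype.

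Lcn2 encodes lipocalin 2, which binds bacterial siderophores and so withholds iron. Its scaled log2 signal was 5.55 and 6.25 on the KO LPS arrays, against -6.40 and -7.21 on the KO unstimulated arrays. On the WT LPS arrays it was 5.48 and 6.63, against -6.78 and -6.51 on the WT unstimulated arrays. None of the 4 unstimulated arrays was well above background, and every LPS array stood far over every unstimulated one. A gene without signal above background in one group has only a lower bound on its fold, for which the dim group was set at the lowest signal that still counted as well above background, or at the gene's own signal where that was higher. By that bound Lcn2 was at least 2662-fold higher after LPS in KO (limma adjusted p = 6.03e-05) and at least 1528-fold higher in WT (adjusted p = 6.70e-05). The p-values of such genes come from the fit on their signals, those below background included, and not from the bound. The bound is approximate, since a spot can lie over that lowest signal and still not count. Ltf did so at -4.76 on WT LPS replicate 2, where the lowest counted signal was -5.14.

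Camp encodes the precursor of the cathelicidin peptide CRAMP, which disrupts bacterial membranes. It stood at -0.82 and -1.31 on the KO LPS arrays, against -7.55 and -7.42 on the KO unstimulated arrays. The WT LPS arrays gave -1.22 and -0.89, against -6.81 and -6.41 on the WT unstimulated arrays. As with Lcn2, the groups did not overlap and no unstimulated array was well above background. Camp was at least 21.3-fold higher after LPS in KO (limma adjusted p = 0.000116) and at least 11.04-fold higher in WT (adjusted p = 0.000263).

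Saa3 encodes a serum amyloid A protein, a lipid-carrying acute phase protein that is made outside the liver. Its signal was 9.35 and 9.03 on the KO LPS arrays, against 0.37 and 0.92 on the KO unstimulated arrays. It was 8.94 and 9.24 on the WT LPS arrays, against 1.24 and 2.82 on the WT unstimulated arrays. All 8 arrays were well above background, so Saa3 was already measured before LPS, and the LPS arrays were all higher. The rise was 8.54 ± 0.52 on the log2 scale in KO (SE, n = 2 arrays a group), or 373-fold, with a limma adjusted p of 0.000236. In WT it was 7.06 ± 0.52, or 133-fold, with an adjusted p of 0.000482.

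Slpi encodes secretory leukocyte protease inhibitor, which blocks neutrophil elastase and cathepsin G and has antibacterial activity of its own. It gave 7.80 and 7.30 on the KO LPS arrays, against 3.35 and 3.65 on the KO unstimulated arrays. The WT LPS arrays gave 7.56 and 7.27, against 4.08 and 5.02 on the WT unstimulated arrays. Slpi was thus well above background everywhere and did not overlap between states. It rose by 4.05 ± 0.38 in log2 in KO, or 16.6-fold (limma adjusted p = 0.000972), and by 2.87 ± 0.38 in WT, or 7.31-fold (adjusted p = 0.00377). The second probe that carries the name Slpi has an accession of its own and lies at chr2:164185063-164185122 in mm9, upstream of the used probe at chr2:164179849-164179908 for a gene on the minus strand. It was not well above background on any of the 8 arrays and gives no level.

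The 4 rises were also called within a slide and with the slide as a term. Within slide 2, which held both KO LPS arrays and 1 KO unstimulated array, the KO log2 differences were 8.82 for Saa3 and 4.20 for Slpi. Within slide 1, which held 1 WT LPS array and both WT unstimulated arrays, the WT log2 differences were 7.21 for Saa3 and 2.72 for Slpi. No difference is given for Lcn2 and Camp, which had only a bound without LPS.

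**Figure D2:**
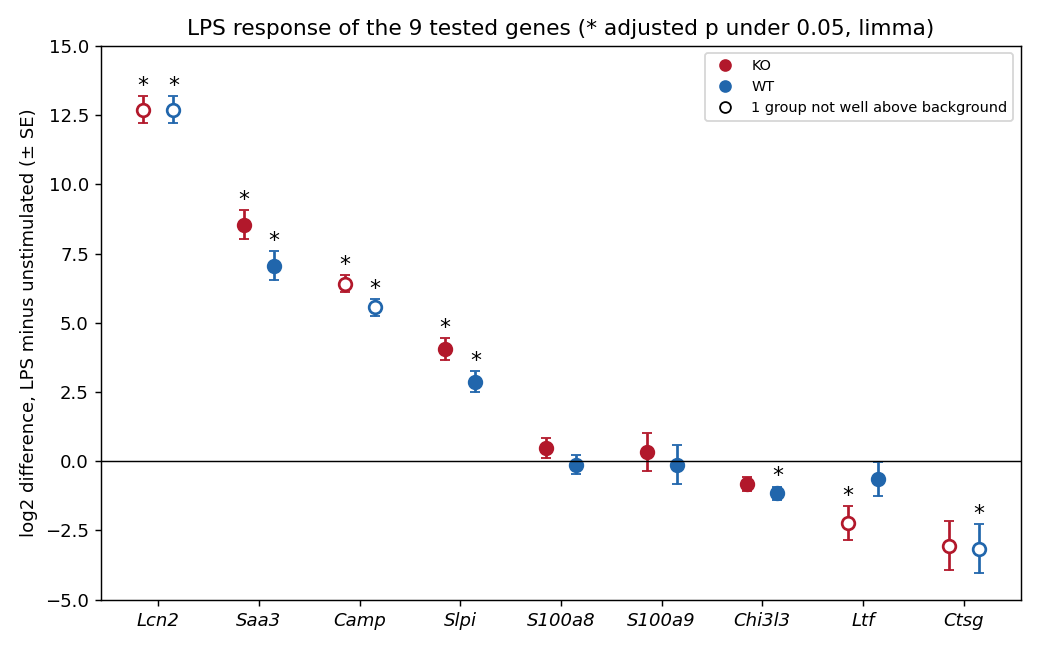
Log2 difference, LPS minus unstimulated, of the 9 tested genes (vertical axis, with standard error) in KO (red) and WT (blue), with n = 2 arrays a group; open symbols mark a comparison in which 1 group was not well above background, where the plotted value is no bound, and stars mark an adjusted p under 0.05. Lcn2 is plotted at 12.70 in both genotypes, and Ctsg lies lowest at -3.06 in KO and -3.16 in WT.

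S100a8 and S100a9 are the subunits of calprotectin, which binds zinc and manganese away from microbes. S100a8 stood at 2.79 and 3.02 on the KO LPS arrays, against 2.91 and 1.95 on the KO unstimulated arrays. In WT it was 2.998 and 2.93 after LPS, against 3.08 and 3.09 without it. KO unstimulated replicate 2 was the lowest of the arrays, and the KO groups overlapped. In WT both LPS arrays lay just under both unstimulated arrays. The log2 difference was 0.47 in KO, with a 95% interval of -0.36 to 1.30, and -0.12 in WT, with an interval of -0.95 to 0.71.

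S100a9 gave -0.32 and 0.59 on the KO LPS arrays, against 0.64 and -1.03 on the KO unstimulated arrays. It gave -0.54 and 0.86 on the WT LPS arrays, against 0.54 and 0.023 on the WT unstimulated arrays. The groups overlapped in both genotypes, and the lowest array was again KO unstimulated replicate 2. The intervals of the log2 difference were wide, -1.31 to 1.97 around 0.33 in KO and -1.76 to 1.52 around -0.12 in WT, so a change of this size either way was not resolved. Both S100 genes were well above background on all 8 arrays. Their probes lie 22.9 kb apart on chromosome 3.

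Chi3l3, now named Chil3 in RefSeq, encodes Ym1, a chitinase-like protein without chitinase activity that is abundant in alternatively activated macrophages and in neutrophils. Its signal was 4.69 and 4.81 on the KO LPS arrays, against 5.60 and 5.57 on the KO unstimulated arrays. It was 5.14 and 5.17 on the WT LPS arrays, against 6.14 and 6.50 on the WT unstimulated arrays. The LPS arrays were lower in both genotypes with no overlap. In WT Chi3l3 fell by 1.16 ± 0.25 in log2 (limma adjusted p = 0.0199). In KO the difference was -0.83 ± 0.25, which missed the threshold (adjusted p = 0.0572). The WT call was lost with the slide as a term (adjusted p = 0.0504), within slide 1 (0.243), and when either WT LPS array was left out (0.0978 without replicate 1 and 0.0907 without replicate 2) or the second WT unstimulated array (0.0765). The KO difference was called with quantile normalization between arrays (adjusted p = 0.0184) and with normexp after replaced local backgrounds (0.0379).

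Ctsg encodes cathepsin G, a serine protease of the primary granules. It was -6.34 and -5.74 on the KO LPS arrays, against -3.65 and -2.32 on the KO unstimulated arrays. It was -5.65 and -6.15 on the WT LPS arrays, against -4.13 and -1.35 on the WT unstimulated arrays. No LPS array was well above background, and all 4 unstimulated arrays were. Ctsg was at least 5.04-fold lower after LPS in KO, without passing the test (limma adjusted p = 0.0523), and fell at least 5.33-fold in WT (adjusted p = 0.0478). These bounds use the mean of the 2 unstimulated arrays of a genotype. The WT bound therefore leans on WT unstimulated replicate 2, and replicate 1 alone would give a smaller fold. The WT unstimulated arrays differed from each other by more than the KO ones, and without WT unstimulated replicate 2 the WT call was lost (adjusted p = 0.121). Leaving out any single array other than WT unstimulated replicate 1, or adding the slide as a term (adjusted p = 0.122), also ended the WT call. The KO difference was called with quantile normalization between arrays (adjusted p = 0.0372), with the KO arrays fitted alone (0.0232), and without either WT unstimulated array (0.0130 each).

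Ltf encodes lactoferrin, an iron-binding protein of the secondary granules. On the probe used it was -5.95 and -5.31 on the KO LPS arrays, against -3.60 and -3.19 on the KO unstimulated arrays. On the WT LPS arrays it was -2.89 and -4.76, against -3.39 and -2.97 on the WT unstimulated arrays. Both KO LPS arrays were not well above background and lay below both KO unstimulated arrays, whereas in WT only replicate 1 of the 2 LPS arrays was well above background and the groups overlapped. In KO Ltf fell at least 3.49-fold (limma adjusted p = 0.0409), and in WT the log2 difference was -0.64 ± 0.60 (adjusted p = 0.495). The KO call was lost within slide 2 (adjusted p = 0.104) and without any 1 of the KO arrays, where it ran between 0.0844 and 0.183, or of the WT unstimulated arrays (0.0609 for each).

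The other Ltf probe gave -7.36 and -6.76 on the KO LPS arrays, against -4.54 and -3.70 on the KO unstimulated arrays. It gave -6.57 and -6.36 on the WT LPS arrays, against -4.29 and -3.71 on the WT unstimulated arrays. On this probe the LPS arrays were not well above background in either genotype, and all 4 unstimulated arrays were. With the mean of both probes, Ltf was called lower in WT (limma adjusted p = 0.0413) and in KO (adjusted p = 0.00698). The WT result for Ltf thus depends on the probe.

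**Figure D3:**
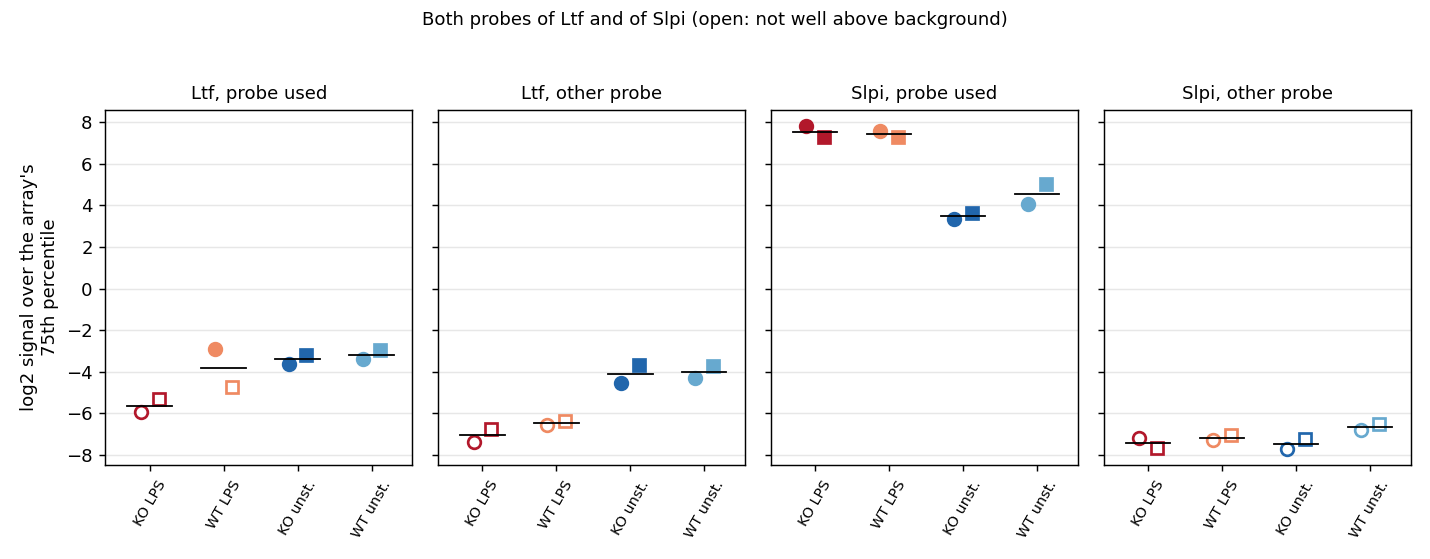
Scaled log2 signal (vertical axis) on the 8 arrays for both probes of Ltf and both probes of Slpi; circles are replicate 1, squares replicate 2, open symbols spots not well above background, and lines group means. The Ltf probes differ at WT LPS replicate 1, which reads -2.89 on the probe used and -6.57 on the other, and the other Slpi probe is open on all arrays.

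Ngp encodes neutrophilic granule protein, a secondary granule protein related to the cathelicidins. It gave -7.43 and -5.49 on the KO LPS arrays, against -5.29 and -7.13 on the KO unstimulated arrays. It gave -6.92 and -5.42 on the WT LPS arrays, against -6.32 and -6.64 on the WT unstimulated arrays. Only KO LPS replicate 2 and KO unstimulated replicate 1 were well above background, the groups overlapped, and no fold is given.

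Between the genotypes, no gene of the set passed the test in either state. After LPS, 4 genes of 15400 were called (0.026%), and 187 had an unadjusted limma p under 0.05. In the unstimulated state 37 of 15401 were called (0.24%), and 394 had an unadjusted p under 0.05. For the difference between the LPS responses, KO minus WT, 7 of 15400 were called (0.0455%) and none of the 9 genes was among them.

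After LPS, 8 of the 9 tested genes were well above background in at least 1 genotype, and their log2 differences, KO minus WT, ran from -1.80 to 0.14. Lcn2 differed by -0.16 between the genotypes, with a 95% interval of -1.31 to 0.9999, and Camp by -0.012, with an interval of -0.72 to 0.70. For Saa3 the difference was 0.10, with an interval of -1.13 to 1.33, and for Slpi 0.14, with an interval of -0.77 to 1.05. These intervals do not hold a difference beyond 1.33 in log2 either way for the 4 genes that rose. Only Ltf and Chi3l3 had arrays that did not overlap, both lower in KO, where 9.88% of 15389 genes were lower in that way. On the probe used, Ltf was at least 2.60-fold lower in KO LPS than in WT LPS, a bound that rests on WT LPS replicate 1. The WT mean behind it includes replicate 2, which was not well above background. The limma adjusted p was 0.9997, and without WT LPS replicate 1 neither LPS group had signal well above background. On the other Ltf probe, WT LPS replicate 1 read -6.57 and no LPS array was well above background, so that probe gives no such difference.

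In the unstimulated state, 7 of the 9 tested genes were well above background, and all 7 log2 differences, KO minus WT, were below 0, from -1.38 to -0.22. Among all genes 56.5% were lower in KO. Saa3 differed by -1.38, with a 95% interval of -2.62 to -0.15, Slpi by -1.05 (-1.96 to -0.14), Chi3l3 by -0.74 (-1.33 to -0.14) and S100a8 by -0.65 (-1.48 to 0.17). In these 4 genes both KO arrays lay below both WT arrays, which was so for 13.1% of 15363 genes. The adjusted p was 0.9999 for each. Without WT unstimulated replicate 2 the difference was -0.59 for Saa3 and -0.58 for Slpi, and without KO unstimulated replicate 2 it was -0.18 for S100a8. Within slide 1 the differences were -1.11 for Saa3, -0.90 for Slpi, -0.75 for Chi3l3 and -1.13 for S100a8.

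The difference between the LPS responses, KO minus WT, was 1.48 ± 0.73 for Saa3 and 1.18 ± 0.54 for Slpi, with limma adjusted p-values of 0.99999 for both. It shares its unstimulated arrays with the comparison above. At 2 arrays a group the interval for Saa3 ran from -0.26 to 3.23 and that for Slpi from -0.10 to 2.47, so neither equal nor unequal responses were shown.

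**Figure D4:**
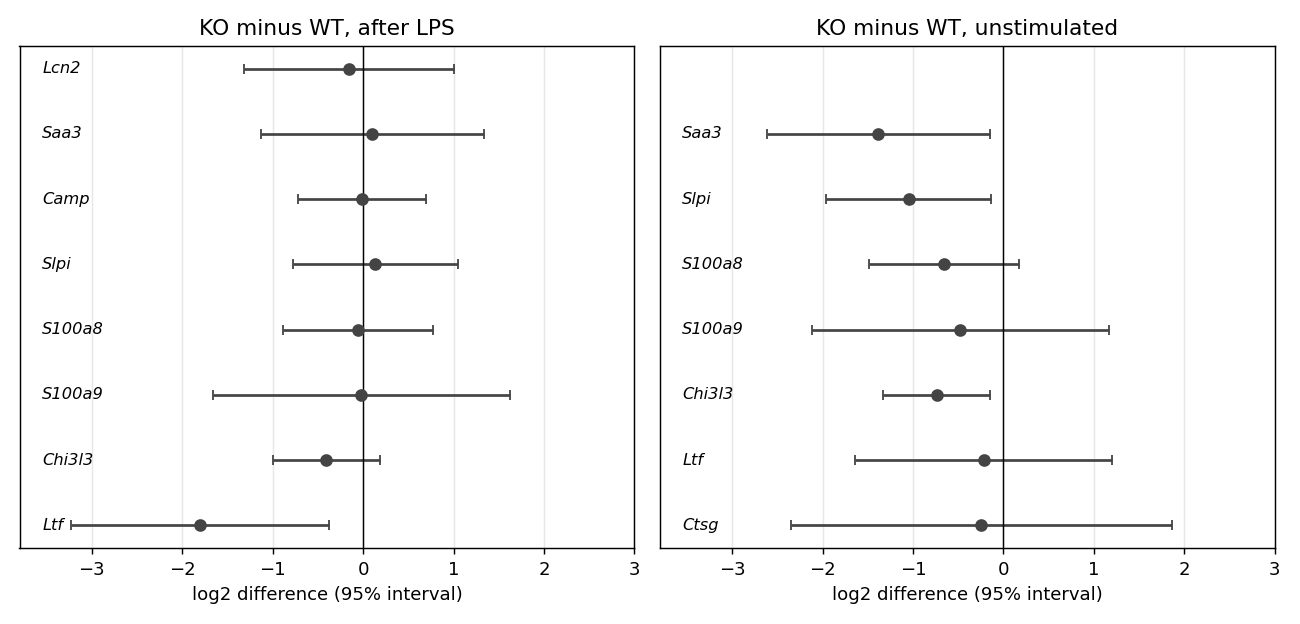
Log2 difference, KO minus WT (horizontal axis, with 95% intervals from limma), after LPS (left) and in the unstimulated state (right), with n = 2 arrays a group; genes without signal well above background in both genotypes of a state are left out, which are Ctsg after LPS and Lcn2 and Camp unstimulated. After LPS the points lie between -1.80 and 0.14, and unstimulated between -1.38 and -0.22.

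The sorted cells were checked first against the defining markers of DC and of neutrophils. The DC markers Itgax, Flt3, Cd86 and H2-Ab1 were well above background on all 8 arrays. Flt3 was the dimmest of the 4, between -4.78 and -1.77. Cd86, the sorting marker, stood between 3.52 and 4.33 on the 4 LPS arrays and between -0.65 and 0.59 on the 4 unstimulated arrays, so no array went against its label. Elane and Prtn3, which encode serine proteases of neutrophil primary granules, were not well above background on any array. Cxcr2 and Retnlg were so on 1 array each, an unstimulated one in both cases, and Mpo, which encodes myeloperoxidase, on 5. The receptor gene Csf3r and the stefin genes Stfa2 and Stfa3 were well above background on all 8, and Stfa1 on 6. Csf3r stood between -3.43 and 1.16, Stfa2 between -3.05 and 0.30 and Stfa3 between -2.34 and 0.23. Ly6g and Cebpe were not analysed here.

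**Figure D5:**
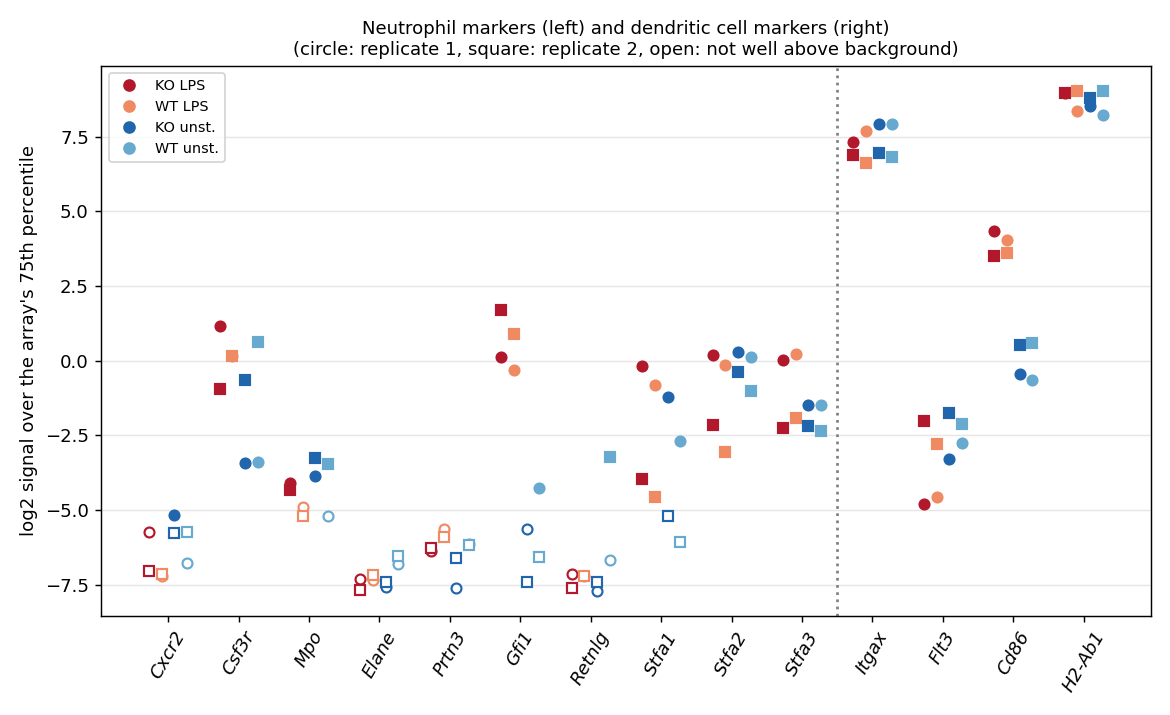
Scaled log2 signal (vertical axis) of 10 neutrophil markers (left of the dotted line) and 4 dendritic cell markers (right) on each array, coloured by group; circles are replicate 1, squares replicate 2, and open symbols spots not well above background. Elane and Prtn3 are open on all arrays, Gfi1 is filled on the 4 LPS arrays and on WT unstimulated replicate 1, and the 4 DC markers are filled on all arrays.

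Of 18 listed genes of the neutrophil lineage, 12 were tested, and 4 rose and 1 fell after LPS in each genotype. Over all genes, 10.4% were called higher and 10.5% lower in KO, and 9.48% higher and 10.7% lower in WT. The counts of this list and of those below stand beside these shares. No list was tested against them. The formyl peptide receptor genes Fpr1 and Fpr2 rose by 4.01 and 2.66 in log2 in KO and by 2.85 and 2.28 in WT. Trem1, an activating receptor, rose by 2.40 in KO and 2.80 in WT, and Hdc, which encodes the histamine-forming enzyme, by 8.87 in KO and 9.17 in WT. For Hdc 1 of 2 WT unstimulated arrays was well above background. Its LPS arrays stood apart, at 6.82 and 2.50 in KO and 6.85 and 3.88 in WT. Padi4, which encodes the enzyme that citrullinates histones in neutrophil extracellular traps, fell at least 12.2-fold in KO and at least 8.37-fold in WT, since no LPS array was well above background. The summed signal of the 12 genes, in multiples of an array's 75th percentile, was 170 to 348 on the KO LPS arrays, 234 to 302 on the WT LPS arrays, 29.0 to 29.3 on the KO unstimulated arrays and 37.5 to 40.9 on the WT unstimulated arrays. Fpr1, Fpr2 and Hdc, 3 of the 4 genes that rose, were then left out after their values were seen. A smaller rise of the sum was fixed by that choice, so the sum without them cannot say whether the list rose. It was 8.31 to 14.5 on the KO LPS arrays and 8.07 to 11.8 on the WT LPS arrays. On the unstimulated arrays it was 7.91 to 9.29 in KO and 6.42 to 6.67 in WT. Of the 12 genes, 7 were not called in either genotype, and the part of the list in the rise of Lcn2, Camp, Saa3 and Slpi was not tested.

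Of 15 macrophage and monocyte markers, all tested, 8 fell and 1 rose after LPS in each genotype. Ccr2, a chemokine receptor of monocytes, had log2 differences of -6.55 in KO and -5.96 in WT, and Mrc1, the mannose receptor, -5.68 in KO and -5.73 in WT. Cd163, a scavenger receptor of macrophages, fell at least 9.66-fold in KO and at least 8.44-fold in WT, and F13a1, which encodes a coagulation factor subunit, fell at least 17.4-fold in WT and by a log2 difference of -3.67 in KO, where 1 of 2 LPS arrays was well above background. The markers that rose, named after their values were seen, were Emr1 in KO (2.48) and Fcgr1 in WT (2.40). The summed signal of the list was 198 to 425 on the KO LPS arrays, 319 to 355 on the WT LPS arrays, 275 to 339 on the KO unstimulated arrays and 261 to 397 on the WT unstimulated arrays.

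Of 9 mast cell and basophil markers, 6 were tested, and 3 fell and 1 rose in each genotype. Mcpt8, a mast cell protease of basophils, fell at least 6.39-fold in KO and at least 7.92-fold in WT, and Cpa3, which encodes carboxypeptidase A3, at least 3.24-fold in KO and at least 2.76-fold in WT. Prss34, another basophil protease, fell by a log2 difference of -3.547 in KO, where 1 of 2 LPS arrays was well above background, and at least 19.8-fold in WT, while Kit, the receptor for stem cell factor, rose by 2.18 in KO and 2.30 in WT. Their summed signal was 0.37 to 0.47 on the KO LPS arrays, 0.31 to 0.42 on the WT LPS arrays, 0.58 to 1.197 on the KO unstimulated arrays and 0.51 to 2.64 on the WT unstimulated arrays. Mcpt8, Cpa3 and Prss34 were higher on replicate 2 than on replicate 1 in both unstimulated groups, as Ctsg was. The same held for the neutrophil genes Padi4, Mpo and Csf3r and for Ltf, Saa3 and Slpi, so it was not particular to basophil genes. Stfa1, Stfa2 and Stfa3 went the other way, and the share of all genes that did either was not counted. The part of these lists in the values of Ctsg, Chi3l3 and Ltf was not tested.

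Of 9 further secondary and gelatinase granule genes, 6 were tested and none was called in either genotype. Of 7 further primary granule genes 4 were tested, and 1 rose in both genotypes: Srgn, which encodes the proteoglycan serglycin found in granules of many blood cells, by 2.94 in KO and 2.99 in WT. Among 7 tested factors of neutrophil differentiation, 3 rose and 1 fell in KO, and 2 rose and 1 fell in WT. Gfi1, which encodes a repressor needed for neutrophil maturation, was at least 83.6-fold higher after LPS in KO and rose by 5.70 in log2 in WT, where 1 of 2 unstimulated arrays was well above background. Lmo4 rose by 2.33 in KO and 1.94 in WT, and Cebpb by 1.23 in KO, while its difference of 0.79 in WT missed the test. Cebpa, which encodes C/EBPα, fell in both genotypes, with log2 differences of -3.22 in KO and -3.20 in WT.

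Of 12 tested acute phase and iron-withholding genes other than these, 9 rose in KO and 8 in WT, and none fell, with a median log2 difference of 4.69 in KO and 4.12 in WT. Saa1 rose by 8.68 in KO and 7.80 in WT, though its probe and that of Saa3 target closely related genes. Cp, which encodes the ferroxidase ceruloplasmin, rose by 7.9997 in KO and 7.13 in WT. In each genotype 1 of 2 unstimulated arrays was well above background for Cp, and its KO LPS arrays stood apart at 3.66 and 1.15.

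Among 13 tested protease inhibitor genes other than Slpi, 5 rose in KO and 4 in WT, and none fell. Serpinb2, which encodes a plasminogen activator inhibitor, rose by 7.51 in KO and by 7.99 in WT, where 1 of 2 unstimulated arrays was well above background. Cst7, which encodes cystatin F, rose by 5.96 in KO and 5.06 in WT.

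Of 10 tested genes on the S100 list other than S100a8 and S100a9, which include S100pbp, the gene of an S100-binding protein, 4 fell and none was called higher in either genotype. The log2 differences were -1.94 in KO and -1.87 in WT for S100a6, -1.57 in KO and -1.33 in WT for S100a10, and -1.44 in KO and -1.52 in WT for S100a1. S100a5 fell at least 3.47-fold in KO and at least 2.84-fold in WT. Of 5 tested chitinase and chitinase-like genes other than Chi3l3, 1 rose and 1 fell in each genotype. Chit1, which encodes the active enzyme chitotriosidase, rose by 4.76 in KO and 4.50 in WT. Chi3l4, the near-identical neighbour of Chi3l3 whose probe lists an accession of Chi3l3 too, fell as well, with log2 differences of -1.01 in KO and -1.27 in WT, so the 2 genes cannot be read apart with certainty.

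Of 12 tested receptors for these proteins, 2 rose and 3 fell in KO, and 2 rose and 2 fell in WT. Fpr2, a receptor for serum amyloid A and the cathelicidin peptide, rose as given above, and Cd14 rose by 2.74 in KO and 2.65 in WT. Scarb1, a scavenger receptor that binds serum amyloid A, fell by a log2 difference of -2.42 in KO and -2.14 in WT. P2rx7, which the cathelicidin peptide can act through, had log2 differences of -2.20 in KO and -2.39 in WT, both called. No gene of any of these lists was called between the genotypes.

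Within the set, the profiles over the 8 arrays were compared by the root mean square difference of mean-centred scaled log2 signals, over 15352 genes with all values. S100a8 and S100a9 were the closest pair among the 9 genes, at 0.47. The gene nearest to Lcn2 was Il6, at 0.51, which encodes the cytokine interleukin 6, followed by U90926 at 0.90 and Il12b at 0.91. Nearest to Saa3 was Irf7 at 0.34, then Saa1 at 0.40 and Ms4a4b at 0.44. Slpi lay nearest to a transcript named only by a sequence accession at 0.21, then Ddx58 at 0.25 and Uba7 at 0.26. Camp lay nearest to a transcript named only by an Ensembl identifier at 0.22, then to Mx2 and H2-Q8 at 0.25 each. For genes that change little, small distances are common: S100a8 lay within 0.083 of Acan, and S100a9 within 0.25 of Ptplad1. The nearest genes were Rfc2 at 0.15 for Chi3l3, Prkar1b at 0.41 for Ltf and Gpr82 at 0.41 for Ctsg. Lcn2 and Camp were not well above background on any unstimulated array, Ctsg on no LPS array and Ltf on only 1. Part of each distance for these genes therefore compares background signal.

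The upstream sequences of the 3 genes that rose after LPS and hold a C/EBP core are shown next, because these genes account for 3 of the 4 members that rose in both genotypes. All 10 genes had a window in RefSeq's promoter table (GRCm38.p6), 250 bases before to 50 after the start. The core was searched as TTGCNNAA on both strands, and it is in capitals in the 250 bases printed for each gene. The Lcn2 window lies at chr2:32387740-32387989, the Saa3 window at chr7:46715677-46715926 and the Slpi window at chr2:164356508-164356757, all 3 on the minus strand.

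Lcn2 promoter: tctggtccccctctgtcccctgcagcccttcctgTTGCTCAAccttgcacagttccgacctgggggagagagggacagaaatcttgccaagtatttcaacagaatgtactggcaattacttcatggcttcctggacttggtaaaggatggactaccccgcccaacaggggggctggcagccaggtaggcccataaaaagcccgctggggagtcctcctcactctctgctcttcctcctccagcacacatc
Saa3 promoter: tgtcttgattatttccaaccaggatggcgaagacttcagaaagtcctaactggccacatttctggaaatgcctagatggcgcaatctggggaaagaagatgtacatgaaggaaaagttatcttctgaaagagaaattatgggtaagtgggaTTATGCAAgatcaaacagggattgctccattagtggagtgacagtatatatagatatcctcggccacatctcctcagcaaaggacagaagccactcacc
Slpi promoter: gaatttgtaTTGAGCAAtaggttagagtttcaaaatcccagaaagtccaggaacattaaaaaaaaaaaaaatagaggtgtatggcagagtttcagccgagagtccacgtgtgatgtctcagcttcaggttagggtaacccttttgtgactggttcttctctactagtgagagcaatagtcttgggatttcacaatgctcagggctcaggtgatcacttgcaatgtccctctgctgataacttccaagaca

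The C/EBP core was found in 6 of the 10 genes: Lcn2, Saa3, Slpi, Ltf, S100a9 and Ngp, against 10.8% of 32851 windows. It began at -216 from the start in Lcn2, at -99 in Saa3 and at -241 in Slpi. Of the 4 genes that rose, Camp held none. S100a9 and Ltf held the core and were not called higher after LPS, and Ngp, which held it at -138 and -11, was not tested. An AP-1 pattern, TGANTCA, was in none of the 10 and in 7.81% of all windows, and a GAS pattern, TTCNNNGAA, was in Chi3l3 and Ctsg and in 8.30% of all. A kappa-B pattern was in 0 of the 10 and in 1.63% of all windows, and an interferon response pattern was in 1 of the 10, Saa3, and in 3.44% of all. These 4 patterns were also searched on both strands, and no match in the 10 windows overlapped a match of another pattern. A match describes letters only, and its absence says only that these letters are not in this window.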

How the data were processed

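RNA of 8 samples was hybridised to one-colour Agilent arrays. The authors used Agilent Feature Extraction (version 10.5.1.1, per the file headers). Its deposited intensity values, on a linear scale, include the processed signal, the mean signal and the local background of each spot. The deposited spot flags, an other unit coded 0 or 1, say which spots were saturated, outlying or well above background. The deposited series table holds log2 values. Compared with the scanner files, each of its columns was the log2 processed signal shifted by a constant, with column medians between 4.98 and 5.30, and the labels do not state its centring. The headers name build mm9.

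From the scanner files, outlying spots (120 to 174 of 45018 per array) were left out, no spot was saturated, and log2 processed signal minus the array's 75th percentile was used. Control spots (1639) were left out and spots of a probe averaged. Probes were kept (23738) if some group had both its arrays well above background, and the brightest probe stood for a gene. The model, in limma 3.58.1 (R 4.3.3, data.table package 1.17.8), held 4 group means and 15401 genes, 48 lacking a value on some array, with 4 residual and 2.88 prior degrees of freedom. P-values were two-sided and adjusted by Benjamini-Hochberg over all genes, and calls were made at 0.05. Errors are standard errors of the fit. The fit was tested on simulated data. Python 3.11.15, pandas 2.3.3 and matplotlib 3.10.9 made the plots. The number of arrays limits the precision.

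Groups and replicate numbers came from the labels, and slides from the headers. The alternatives were normexp, quantile normalization, the deposited table, other filters, the mean of a gene's probes, slide and replicate terms, fits on the compared groups alone, and leaving out each array.

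The members and all lists were chosen with earlier results of these data known. All 10 members are named. From each list at most 4 called genes with the largest log2 change per genotype were eligible to be named, with the defining markers, and the 3 genes nearest to each tested member. A gene that the naming rule selects and the list counts include is not reported here.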

Additional observations from a re-analysis of the deposited data

How the results depend on the processing

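The rises of Lcn2, Camp, Saa3 and Slpi were called in both genotypes under every alternative that tested them, and no member was called between genotypes under any. Asking for signal well above background on all arrays left 5 members to test, with 2 called in KO and 3 in WT. Leaving out an array gave 4 to 5 called in KO, 4 to 6 in WT and 0 in each of the other comparisons. The WT calls of Chi3l3 and Ctsg were also lost with the WT arrays fitted alone (adjusted p = 0.0717 and 0.0861) and with normexp, and without the filter the calls of Ltf in KO (0.0676) and Ctsg in WT (0.0786) were lost. With quantile normalization, which shifted the median KO response of all genes to -0.058, against 0.049, 7 were called in KO.

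Replicate numbers did not pair the samples by any label. Deviations of same-numbered arrays correlated at 0.69 between KO LPS and WT LPS and at 0.50 between KO unstimulated and WT unstimulated. Between an LPS and an unstimulated group they correlated between 0.013 and 0.33. Within a state the same-numbered arrays of the genotypes thus deviated alike, which the intervals of the main fit took no account of. With the replicate block, 7 members were called in KO, Chi3l3 (adjusted p = 0.0421) and Ctsg (0.0261) joining, and 6 in WT. Over all genes it called 4187 in KO and 4154 in WT, against 3208 in KO and 3106 in WT without it.

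Over all genes, normexp called 930 in KO and 676 in WT, within-slide fits 441 and 1533, and fits without 1 array 1420 to 3106 in KO and 1442 to 2865 in WT. Between genotypes, 0 to 56 genes were called unstimulated, 0 to 5 after LPS and 0 to 14 for the difference of responses.

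Other values changed sign, all of them uncalled under the alternative, and the cause was not tested except where named. With normexp, whose fitted background failed on KO LPS replicate 2 (-1551, against -32.2 to 1.04), the LPS response of S100a9 in WT was 0.071, and in KO that of Ltf 0.99, S100a8 -0.34 and Ctsg 0.63. KO minus WT after LPS was then 0.45 for Camp, 1.03 for Ltf, -0.76 for Saa3 and -0.70 for Slpi, and the difference of responses -0.16 for S100a8, -0.030 for S100a9 and -0.65 for Chi3l3. With replaced local backgrounds before normexp, an alternative chosen after seeing the data, S100a9 in WT was 0.060 and the Ltf response in KO -0.51, no longer called. Within a slide, the response of S100a9 was -0.50 in KO and 0.58 in WT and that of S100a8 in KO -0.0045, KO minus WT was 0.42 for Ctsg unstimulated, and after LPS 0.42 for Lcn2, 0.16 for Camp, 0.68 for S100a9 and -0.010 for Slpi. With the slide as a block Camp after LPS was 0.10.

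Fits without 1 array ranged as follows. The response in KO ran from -0.50 to 1.17 for S100a9 and from -0.0045 to 0.95 for S100a8, and in WT from -1.57 to 0.29 for Ltf and from -0.82 to 0.58 for S100a9. KO minus WT unstimulated ran from -1.64 to 1.14 for Ctsg and from -1.31 to 0.36 for S100a9. After LPS it ran from -0.73 to 0.42 for Lcn2, -0.26 to 0.23 for Camp, -0.17 to 0.053 for S100a8, -0.72 to 0.68 for S100a9, -0.060 to 0.26 for Saa3 and -0.11 to 0.39 for Slpi. The difference of responses of S100a9 ran from -0.38 to 1.29.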

Other observations

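Some marker genes differed between the replicate numbers in the same direction in all 4 groups. Stfa1, which encodes a stefin, a cysteine protease inhibitor found in neutrophils and other myeloid cells, was higher on replicate 1 than on replicate 2 in all 4 groups. Its scaled log2 signal was -0.17 and -3.96 on the KO LPS arrays, -0.82 and -4.57 on the WT LPS arrays, -1.22 and -5.19 on the KO unstimulated arrays, and -2.70 and -6.06 on the WT unstimulated arrays. Stfa2 and Stfa3 differed the same way in all 4 groups, and these 3 genes are close paralogs whose probes may share signal. The DC marker Itgax was also higher on replicate 1 in all 4 groups, with 7.31 and 6.89 on the KO LPS arrays and 7.91 and 6.83 on the WT unstimulated arrays. Flt3, which encodes the receptor for a DC growth factor, was lower on replicate 1 in all 4 groups, with -4.78 and -2.03 on the KO LPS arrays and -2.77 and -2.11 on the WT unstimulated arrays. Among the tested antimicrobial genes with signal well above background, Ctsg, Ltf, Saa3 and Slpi were lower on replicate 1 in both unstimulated groups, and S100a9 was higher. In both LPS groups Lcn2, S100a9 and Chi3l3 were lower on replicate 1, and Slpi was higher. The marker genes were singled out after their values were seen, and the share of all genes that behaved so was not counted. No test was run, and what the replicate numbers share is not given in the labels.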
